A study of Drosophila melanogaster with 8 samples.

Results

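The baseline described here is the set of transcripts measured in brains of wild-type Canton S (CS) larvae at 58-62 h after egg laying (AEL). Its members were the 4 CS samples of a series of 8, chosen by genotype and age as labelled. The other 4 samples came from STIM KO larvae and were not used. Each CS sample was a pool of dissected brains from which RNA was isolated independently, and 10 ng of RNA was copied into cDNA with a primer for the poly(A) tail. No transgene, driver or drug was present, and the sex of the larvae was not given in the sources used here. The 4 samples are called CS replicates 1 to 4, and values given in a row of 4 stand in that order. Reads were counted on 34450 RefSeq transcripts out of 34463 features, after 13 mitochondrially encoded proteins were set aside. Of these transcripts 14704 had at least 1 count in a CS library and 5472 had at least 1 count in all 4.

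The larval brain holds neuroblasts, the stem cells that were set aside in the embryo and divide again during larval life. It also holds the larval neurons already wired into circuits, several classes of glia, and neurosecretory cells that release peptide hormones. The ring gland, which makes the steroid precursor of the moulting hormone, is joined to the brain by nerves and is often taken out with it. In bulk RNA of this kind, fewer cells of a type and less RNA per cell cannot be told apart.

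Depth differed between the libraries. The transcripts received 361032, 573509, 1742668 and 2062144 counts in CS replicates 1 to 4, which was 3.29, 3.79, 10.5 and 11.4% of all reads listed. Reads that overlapped more than 1 feature made up 9.89, 11.5, 34.5 and 33.5%, reads outside any feature 54.6, 54.6, 46.97 and 46.5%, and reads without an alignment 29.5, 24.9, 6.06 and 6.46%. Levels are given as CPM, the count scaled to a library total of 1000000 over the 34450 transcripts. A single count was worth 2.77, 1.74, 0.574 and 0.485 CPM, and a count of 0 allowed a level of up to 8.31, 5.23, 1.72 and 1.45 CPM, the value of 3 counts. These limits cover counting error only, since amplified reads are not independent molecules. Replicates 1 and 2 were thus the shallow pair, with more unaligned and fewer ambiguous reads, and replicates 3 and 4 the deep pair. The labels name no batch.

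A level above 10 CPM in all 4 libraries was reached by 3583 transcripts of 3505 genes, which is 10.4% of the transcripts counted. They carried 94.0, 92.0, 88.7 and 90.2% of the counts in CS replicates 1 to 4. Of these transcripts 847 were above 100 CPM and 32 above 1000 CPM in every library. A further 377 transcripts passed 10 CPM in replicates 1 and 2 and in neither of the others, and 693 passed it in replicates 3 and 4 and in neither of the others. Just inside the minimum by their lowest library stood zfh2 at 676, 298, 17.2 and 10.2 CPM and Deaf1 at 396, 242, 21.8 and 10.2 CPM. Just outside stood Fgop2 at 16.6, 24.4, 9.76 and 21.3 CPM and mthl2 at 22.2, 15.7, 9.76 and 15.5 CPM.

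Most of the baseline came from genes with a single counted isoform. Such genes, 9765 of the 17160 matched, gave 2581 of the 3583 transcripts above 10 CPM in all 4 libraries, or 26.4% of their own number. For genes with 2 isoforms the share of transcripts above 10 CPM was 5.23%, and for genes with over 10 isoforms it was 2.33%. Detection with at least 1 count showed the same order, at 76.3% of transcripts from genes with 1 isoform, 33.1% from genes with 2 and 17.8% from genes with over 10. The share of counts on genes with 1 isoform was 47.3, 55.9, 82.7 and 86.3% in CS replicates 1 to 4. Both deep libraries therefore drew most of their counts from these genes, whereas the shallow pair drew more of theirs from genes with several isoforms. A read that fits several isoforms of a gene cannot be given to any of them without a further rule, and such a gene can be listed near 0 for that reason alone. The part this played in the difference between the libraries was not tested, and levels of genes with several isoforms are given below with that limit.

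**Figure D1:**
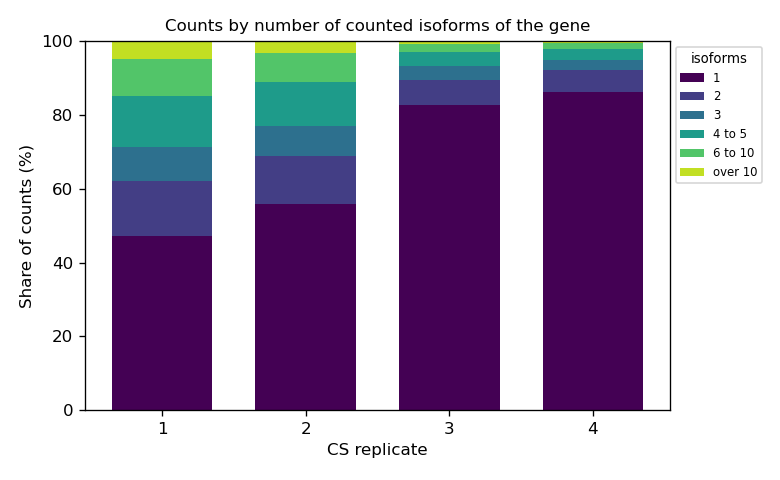
Share of counts (%, vertical axis) by the number of counted isoforms of the gene (colours), in CS replicates 1 to 4 (bars). Genes with 1 isoform held 47.3, 55.9, 82.7 and 86.3% of the counts, and genes with over 10 isoforms 4.92, 3.14, 0.748 and 0.503%.

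CPM is not divided by transcript length, so ranks by CPM are ranks of counts. The transcript with the highest mean CPM was alphaTub84B (NM_057424.4, chr3R:7086599-7088839 in dm6), which encodes the main alpha-tubulin of microtubules. It had 24505, 31647, 14246 and 12469 CPM and a mean of 20717 ± 9013 CPM (SD, n = 4). In replicate 1 this was 2.45% of the counts, with a 95% Wilson interval of 2.401 to 2.501%, and in replicate 4 it was 1.25%, with an interval of 1.23 to 1.26%. alphaTub84B led replicates 1 to 3, and blw led replicate 4. His3.3B, a histone H3.3 gene used outside S phase, ranked next with 22028, 26034, 2194 and 2509 CPM, and its shallow and deep libraries did not overlap. blw, the alpha subunit of the mitochondrial ATP synthase, had 4293, 5074, 10806 and 14488 CPM and Cyp1, a cyclophilin, 8686, 10920.5, 5884 and 7358 CPM. Of the 20 transcripts of highest mean CPM Cyp1 varied least, with a coefficient of variation (CV, SD over mean) of 0.26.

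In 16 of the top 20 both shallow libraries lay above both deep ones. Over all 3583 transcripts above 10 CPM in all 4 libraries this was 27.6%. Counts were more concentrated in the shallow pair, so a rank by mean CPM is weighted toward it. The 16 of 20 therefore does not describe abundant genes in general. Several transcripts had high counts in the shallow pair alone. RpLP2, an acidic protein of the large ribosomal subunit, had 13002, 17695, 572 and 455 CPM. Lrp4, a receptor of the LDL receptor family, had 12725, 16629, 48.2 and 61.1 CPM, and the listed isoform of Atpalpha, the sodium pump, 17749, 10268, 286 and 164 CPM. eIF4EHP, a cap-binding protein that represses translation, had 14808, 9463, 107 and 102 CPM. In these 4 the lowest shallow library was at least 22.7-fold above the highest deep library. The same order held for IA-2, a dense-core vesicle protein, at 11453, 9693, 1044 and 676 CPM, and for scrt, a neuronal zinc-finger factor, at 13431, 7137, 811 and 669.7 CPM. It also held for RpL22 (6927, 9522, 523 and 446 CPM), for beat-VII of the beaten path family of axon guidance proteins (5709, 8730.5, 766 and 427 CPM), and for Ald1, the glycolytic aldolase (6866, 5901, 1552 and 1123 CPM). Of the others, sqd, an RNA-binding protein, had 7263, 6317, 608 and 579 CPM, RpL4 5079.9, 6050.5, 1163 and 1457 CPM, and jeb, a secreted ligand of the Alk receptor, 6855, 5927, 269 and 166 CPM. alphaSnap, which recycles SNARE complexes after vesicle fusion, had 6382, 6835, 2477 and 3163 CPM. Of the top 20, His3.3B, Lrp4, Atpalpha, eIF4EHP, IA-2, scrt, Ald1, sqd and jeb have several isoforms. Each of these values is that of a single isoform and falls under the isoform limit given above.

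The opposite order was seen in 4 of the top 20, against 53.3% of all 3583 transcripts above 10 CPM in all 4 libraries. These were blw, Act42A, lost and spok. Act42A, a cytoplasmic actin, had 2886, 3018, 9647 and 11207 CPM and lost had 3302, 3322, 8945 and 10803 CPM. spok, a cytochrome P450 of ecdysone synthesis in the prothoracic gland, had 360.1, 539, 5215 and 7656 CPM. The lower deep library of spok lay 9.68-fold above the higher shallow one. Near-identical copies exist for alpha-tubulin and actin genes, so reads shared with alphaTub84D or other actins may have been dropped or split, and these levels are uncertain.

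**Figure D2:**
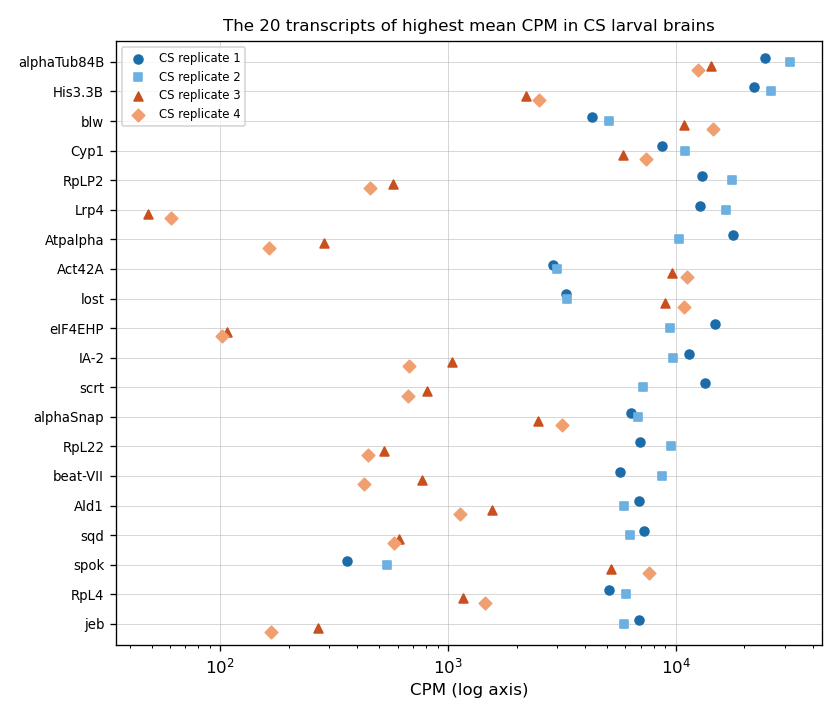
CPM (log axis) of the 20 transcripts of highest mean CPM, with 1 point for each CS replicate. alphaTub84B lies at or above 12469 CPM in all 4 libraries, while eIF4EHP has 14808, 9463, 107 and 102 CPM and spok 360.1, 539, 5215 and 7656 CPM in replicates 1 to 4.

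The 100 transcripts of highest mean CPM held 37.8, 37.3, 17.5 and 20.4% of the counts in CS replicates 1 to 4, with a mean of 28.2% ± 10.8 (SD, n = 4). The 1000 highest held 74.5, 71.9, 59.5 and 62.6%. Counts were therefore more concentrated in the shallow pair, and the groups of libraries did not overlap on either measure. Each library's own top 10 held 14.6, 15.1, 7.0 and 8.55%.

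Levels of different genes were set side by side per kilobase of exon, for genes with 1 counted isoform. Short genes moved up on this scale. A noncoding RNA of 214 bases, lncRNA:CR40469, led with a mean of 14542 CPM per kb, followed by RpLP2 with 13130.2, alphaTub84B with 11825 and RpL41 with 9070.2 CPM per kb. Cyp1 had 6693 CPM per kb and CG11300 4453. Act42A had 4114, RpL22 3959, blw 3848 and RpL35A 3649 CPM per kb. Of these 10, lncRNA:CR40469 and the 4 ribosomal protein genes were high in the shallow pair only, so their place rests on replicates 1 and 2.

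The label of brain tissue was compared with marker genes of the cells a brain preparation could hold. The neuron list had 11 of 161 transcripts above 10 CPM in all 4 libraries (6.83%, against 10.4% of all transcripts), from 10 of 15 genes. Its share of counts was 1.04, 0.553, 0.365 and 0.246%. Summed over isoforms, elav, the RNA-binding protein used to mark neurons, had 1091, 673, 188 and 174 CPM. para, the voltage-gated sodium channel, had 3354, 1259, 169 and 111 CPM, and futsch, a microtubule-associated protein of axons, 1457, 874, 255 and 122 CPM. Synaptic genes were present too, with Syx1A, a vesicle fusion protein, at 1626, 752, 277 and 178 CPM, and Syt1, the calcium sensor of vesicle release, at 1188, 732, 70.6 and 37.8 CPM. Rab3, a synaptic vesicle GTPase, had 784, 602, 1939.5 and 1374 CPM and, unlike these, was higher in both deep libraries. Syn, Snap25 and Appl, which neurons also use, had 0 to 3.44 CPM in every library. None of the 15 genes of the neuron list has a single counted isoform, and these low values fall under the limit given above.

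Glia were represented by the 4 genes of their list that have 1 isoform, and all 4 were above 10 CPM in every library, against 26.4% of such genes. Over the whole list it was 4 of 40 transcripts (10%, near the 10.4% of all transcripts), from 4 of 11 genes. alrm, a marker of astrocyte-like glia, had 861, 591, 1625 and 1655 CPM, and repo, the transcription factor that defines most glia, 310.2, 296, 199.7 and 135 CPM. Mdr65, a transporter of the blood-brain barrier, had 94.2, 83.7, 1895 and 1997 CPM, and wrapper, a cell surface protein of glia, 166, 109.8, 1001 and 887 CPM. For alrm, Mdr65 and wrapper both deep libraries lay above both shallow ones, and for repo the order was the reverse. The other 7 genes of the list have several isoforms, and Gs2, Eaat1, nrv2, moody and loco reached at most 63.1 CPM while Gat and Gli had no count.

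Neuroblast genes were the steadiest of the cell type lists. They took 0.132, 0.11, 0.164 and 0.141% of the counts, with a mean of 0.137% ± 0.0222 (SD, n = 4), and 6 of 7 genes had a transcript above 10 CPM in all 4 libraries. Over the list it was 6 of 19 transcripts (31.6%, against 10.4% of all transcripts). ase, a proneural factor kept on in type I neuroblasts, had 310.2, 258, 529 and 429 CPM, and insc, which orients the mitotic spindle in asymmetric division, 296, 207, 195 and 109 CPM. wor, a Snail family factor, had 119, 81.95, 716 and 750.2 CPM and dpn, a Hes family factor, 343, 347, 147 and 73.2 CPM. For wor the deep pair was higher, for dpn the shallow pair, and the summed list share overlapped between the pairs. Of the other genes, grh had 172, 131, 23.5 and 19.4 CPM, mira 55.4, 64.5, 8.61 and 4.36 CPM and klu 27.7, 10.5, 18.4 and 20.9 CPM, summed over isoforms.

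Ring gland genes were present in all 4 libraries, at 0.0897, 0.112, 0.712 and 0.955% of the counts. 6 of 8 genes had a transcript above 10 CPM throughout, and 6 of 10 transcripts were above it (60%, against 10.4% of all transcripts). Besides spok, the ecdysone synthesis enzyme sad had 224, 303, 1186 and 1027 CPM, nvd had 58.2, 80.2, 227 and 418 CPM and dib had 69.2, 48.8, 192 and 249 CPM. All 3 were higher in both deep libraries, and all act in the prothoracic gland. sro, another gene of this pathway, had 44.3, 78.5, 57.4 and 114 CPM and phtm 19.4, 13.9, 6.89 and 6.3 CPM. Akh, the adipokinetic hormone of the corpora cardiaca, had 122, 54.1, 237 and 74.2 CPM, with no separation of the pairs. jhamt, which makes juvenile hormone in the corpora allata, had 0 to 3.49 CPM. On the summed list both deep libraries lay above both shallow ones, and how far gland tissue differed between the dissections was not tested.

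Markers of tissues outside the brain were mostly at or near 0. Of the haemocyte, fat body and gut lists, 0 of 45 transcripts were above 10 CPM in all 4 libraries. The summed level was 4.85 to 33.2 CPM for haemocytes, 1.72 to 22.7 CPM for fat body and 0 to 24.4 CPM for gut. The highest of these by mean CPM was PPO2, a prophenoloxidase of crystal cells, with 24.9, 8.72, 5.16 and 0 CPM, and Lsp1gamma, a storage protein of fat body, had 2.77, 15.7, 0.574 and 1.45 CPM. Hml, Pxn, Lsp1beta, Fbp1 and Fbp2 had no count in any CS library, but all have several isoforms and fall under the limit given above. Of genes with 1 isoform, 0 of 3 in the haemocyte list, 0 of 2 in fat body and 0 of 8 in gut were above 10 CPM in all 4 libraries, against 26.4% of such genes. Antimicrobial peptide genes, which mark an immune response, summed to 4.02 to 16.6 CPM. Of the muscle list, Act57B had 2371, 4218, 557 and 729 CPM and Mlc2 543, 767, 352 and 494 CPM, whereas Mhc, the muscle myosin heavy chain, had 0, 13.9, 0 and 2.91 CPM and Act87E none. Act57B and Mlc2 have a single isoform, but Mhc and Act87E have several, so their low values fall under the same limit. In the salivary gland list the glue genes Sgs1, Sgs3, Sgs4, Sgs5, Sgs7 and Sgs8 stayed at or under 8.72 CPM, while ng3 had 11.1, 5.23, 7.46 and 81.95 CPM, ng1 5.54, 5.23, 12.6 and 39.8 CPM and ng2 0, 3.49, 13.2 and 21.8 CPM. Cuticle genes, taken as epidermal markers, gave 0.0152, 0.0586, 0.141 and 0.0257% of the counts. Of these Cpr49Ag had 24.9, 94.2, 286 and 109 CPM and Lcp65Ac 33.2, 124, 32.1 and 0.97 CPM.

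**Figure D3:**
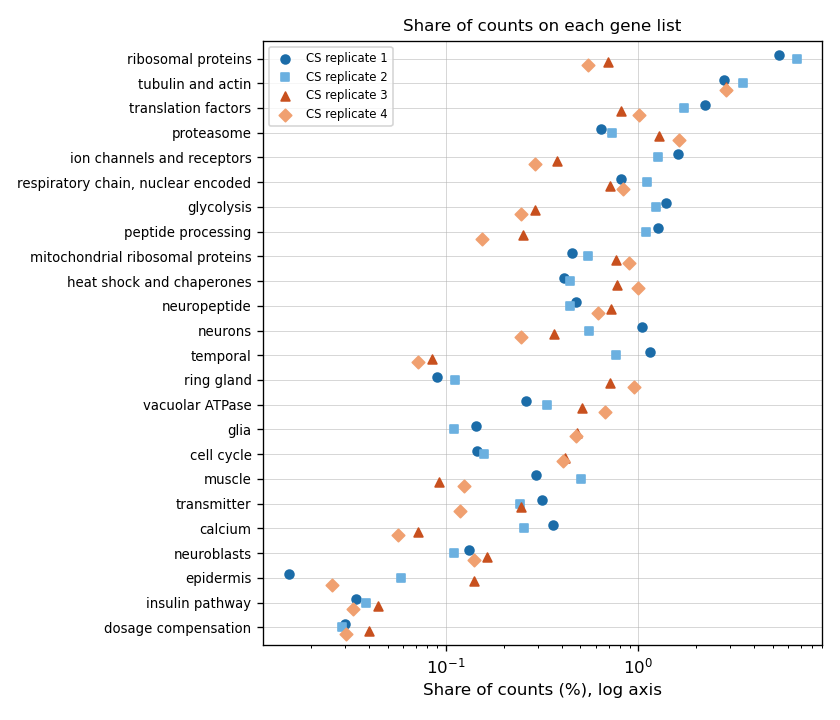
Share of counts (%, log axis) on each gene list with a mean share above 0.01%, with 1 point for each CS replicate. Ribosomal proteins range over 5.4, 6.64, 0.699 and 0.549% in replicates 1 to 4, while tubulin and actin genes stay between 2.79 and 3.52%.

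Among temporal factors, which mark how far a neuroblast lineage has progressed, chinmo and Imp were counted in all 4 libraries. Over the list 6 of 71 transcripts were above 10 CPM in all 4 (8.45%, against 10.4% of all transcripts). chinmo, a BTB zinc-finger protein of early-born neurons, had 7282, 5043, 196 and 181 CPM summed over isoforms, and Imp, an RNA-binding protein of young neuroblasts, 3905, 2251, 344 and 303 CPM. Syp, the RNA-binding protein that replaces Imp later in larval life, had no count on any of its 20 isoforms. Eip93F, induced by ecdysone late in development, had at most 5.23 CPM. cas had 0, 0, 63.1 and 42.7 CPM, svp 74.8, 136, 26.97 and 19.9 CPM, br 102, 119, 151 and 49.9 CPM and mamo 63.7, 47.1, 6.89 and 2.91 CPM. lin-28, the single-isoform gene of this list, had 19.4, 17.4, 60.8 and 115 CPM. Zero counts over so many isoforms do not show that Syp was off, by the limit given above.

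Of 18 genes for making, loading, taking up or sensing neurotransmitters, 16 had at least 1 count. 7 of 50 transcripts of this list passed 10 CPM in all 4 libraries (14%, against 10.4% of all transcripts). All 4 of its single-isoform genes did, against 26.4% of such genes. VAChT, which loads acetylcholine into vesicles, had 850.3, 729, 1022 and 237 CPM, and ChAT, which makes it, 1582, 1064, 199 and 155 CPM. VGAT, the GABA transporter of vesicles, had 252, 219.7, 443 and 323 CPM, and Gad1, the enzyme of GABA synthesis, 0, 3.49, 55.1 and 57.2 CPM. Trhn, which makes the precursor of serotonin in neurons, had 130.2, 90.7, 328 and 201 CPM, and Tdc2, of tyramine and octopamine synthesis, 77.6, 120.3, 71.2 and 58.7 CPM. VGlut, of glutamatergic neurons, had 0, 1.74, 47.1 and 13.1 CPM. Gad1 and VGlut have several isoforms, so their low values fall under the limit given above.

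Most dopamine genes had few counts, but every gene named in this paragraph has more than 1 isoform. Their low values fall under the limit given above and do not show low expression. ple, which encodes tyrosine hydroxylase, had 69.2, 38.4, 2.87 and 2.42 CPM, and Ddc, which completes the synthesis of dopamine and serotonin, 47.1, 13.9, 121 and 55.3 CPM. Vmat, which loads both into vesicles, had 0, 6.97, 3.44 and 3.39 CPM, and the reuptake transporters DAT and SerT had no count. Among the receptors, Dop1R1 had 155, 122, 61.4 and 22.8 CPM and DopEcR 0, 5.23, 87.8 and 54.8 CPM. Dop1R2 stayed between 1.74 and 6.31 CPM, and Dop2R had 1 count in a single library. Dop1R1 was thus lower in both deep libraries and DopEcR higher. Tbh, of octopamine synthesis, had 0, 0, 7.46 and 3.88 CPM, and Hdc, of histamine synthesis, 1 count in replicate 2.

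Ion channels and receptors took 1.6, 1.27, 0.378 and 0.29% of the counts, and 17 of 171 transcripts were above 10 CPM in all 4 libraries (9.94%, near the 10.4% of all transcripts). They came from 14 of 27 genes. Sh, a voltage-gated potassium channel, had 7728, 4755, 610.0 and 361 CPM summed over isoforms. Nmdar1, a glutamate receptor subunit and a single-isoform gene, had 1715, 1935, 527 and 426 CPM. The nicotinic acetylcholine receptor subunits nAChRalpha1 and nAChRbeta1 had 1689.6, 1365, 168 and 130.0 CPM and 512, 553, 1226 and 1039 CPM. The alpha subunit was higher in the shallow pair and the beta subunit in the deep pair. Of the 17 transcripts of the list above 10 CPM in all 4 libraries, 12 had both deep libraries below both shallow ones and 4 had them above. Over all 3583 such transcripts this was 27.6% and 53.3%, but most of those come from genes with 1 isoform. Only 1 of the 17 does. By its mean, the deep pair was higher in 132 of 414 transcripts of genes with 2 isoforms and in 14 of 60 of genes with over 10. For genes with 1 isoform it was higher in 2002 of 2581, so the order is not particular to this list.

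Genes of calcium handling ranged widely in counts, and none of the 9 in the list has a single counted isoform. Cam, which encodes calmodulin, had 3099, 1948, 48.2 and 37.3 CPM. SERCA, which pumps calcium into the endoplasmic reticulum, had 294, 259.8, 524 and 416 CPM summed over isoforms, and was among the few steady genes of the list. PMCA, the plasma membrane pump, had 155, 248, 72.3 and 44.6 CPM and CaMKII 16.6, 50.6, 57.96 and 55.8 CPM. The store-operated entry genes had counts near the limit of detection, which by the isoform limit given above does not show low expression. Stim, the calcium sensor of the endoplasmic reticulum, had 16.6, 6.97, 6.89 and 6.79 CPM over 4 isoforms, and Orai, the pore it opens, 5.54, 12.2, 1.15 and 0.485 CPM. Itpr, the IP3 receptor, had 16.6, 10.5, 1.15 and 1.94 CPM, Calx 0, 3.49, 7.46 and 2.42 CPM, and RyR no count. The wild-type value listed for Stim thus rested on 6, 4, 12 and 14 counts.

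Peptide hormone genes, which neurosecretory cells and peptidergic neurons use, were described in full. Of 44 genes, 36 were detected and 23 had their leading transcript above 10 CPM in all 4 libraries. By transcript this was 24 of 75 (32%, against 10.4% of all transcripts). Among genes with 1 isoform it was 17 of 26, against 26.4% of such genes, and among the rest 6 of 18. The 44 genes took 0.475, 0.439, 0.72 and 0.614% of the counts.

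sNPF, short neuropeptide F, a feeding and growth peptide, had the most counts of the list in every library, with 1036, 861, 3174 and 3003 CPM and a mean of 2019 ± 1239.5 CPM (SD, n = 4). Its single counted isoform is NM_165316.2, at chr2L:20027915-20056373 in dm6. Capa, of the pyrokinin and periviscerokinin peptides, came next by mean with 66.5, 24.4, 872 and 745 CPM, but was below 70 CPM in the shallow pair. Nplp1 had 409.9, 511, 179.6 and 217 CPM. Lk, leucokinin, which acts on the renal tubules, had 66.5, 76.7, 506 and 562 CPM, with both deep libraries above both shallow ones. Hug, whose peptide lowers feeding, had 468, 457, 142 and 100.4 CPM, in the reverse order. Dh44, a diuretic hormone related to CRF, and Crz, corazonin, were steadier, with 296, 204, 337 and 181 CPM and 199, 179.6, 308 and 309.9 CPM. Mip had 285, 394, 178 and 110.1 CPM and FMRFa 60.9, 105, 252 and 145 CPM.

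The insulin-like peptides differed in level. Ilp2, made in the median neurosecretory cells, had 601, 474, 99.3 and 27.2 CPM, and Ilp5, of the same cells, 213, 204, 62.5 and 19.9 CPM. In both the shallow pair was higher. Ilp3, the other peptide of these cells, had 0, 0, 4.02 and 2.42 CPM, which is 0, 0, 7 and 5 counts, and lay close to the limit of detection. Ilp7 had 85.9, 109.8, 27.5 and 29.1 CPM and Ilp6 41.5, 38.4, 14.9 and 11.2 CPM. Ilp1 had 1 count, and Ilp4 and Ilp8 none. Per kilobase of exon, Ilp2 had 897, 708, 148 and 40.5 CPM per kb, beside 423, 352, 1297 and 1227 for sNPF, 95.6, 35.1, 1254 and 1072 for Capa and 106, 123, 808 and 897 for Lk. On the length scale Ilp2 was therefore the highest single-isoform peptide gene in the shallow pair, and sNPF in the deep pair. Ilp5 averaged 261, Ilp7 60.4 and Ilp3 2.14 CPM per kb.

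The other peptides above 10 CPM in all 4 libraries had fewer counts by their mean. Pdf, the clock neuron peptide, had 172, 115, 62.5 and 46.1 CPM, and SIFa 49.9, 54.1, 87.8 and 135 CPM. Gpa2, a glycoprotein hormone subunit, had 155, 117, 70.01 and 39.8 CPM, and Orcokinin 88.6, 62.8, 155 and 73.2 CPM. Dsk, a sulfated peptide of the cholecystokinin family, had 91.4, 78.5, 22.95 and 16.5 CPM. ITP, ion transport peptide, had 30.5, 22.7, 73.5 and 67.9 CPM on its leading isoform, and AstA, allatostatin A, 49.9, 59.3, 40.7 and 23.8 CPM. Burs, a subunit of the tanning hormone bursicon, had 38.8, 62.8, 30.99 and 21.8 CPM, and ETH, the ecdysis triggering hormone, 13.8, 15.7, 23.5 and 17.9 CPM. Below the minimum in at least 1 library were Pburs (8.31, 19.2, 18.9 and 14.5 CPM), CCHa1 (2.77, 6.97, 67.1 and 58.2 CPM), amn (19.4, 6.97, 75.7 and 27.6 CPM) and Trissin (38.8, 38.4, 9.76 and 0.97 CPM). Ms, Gpb5, CCHa2, Ptth, CCAP, RYa and Proc had 11.1 CPM or less in every library. NPF, AstC, Dh31, Eh, Tk and CNMa, all with more than 1 isoform, had no count. In the order by mean CPM, and in that of the 24 single-isoform genes per kilobase, the range over the 4 libraries of each gene overlapped that of the next. Compared within each library, sNPF was above Capa in all 4, while in the other 21 of 22 neighbouring pairs above 10 CPM the order of the means did not hold in at least 1 library. Per kilobase the order of the means held in every library for 5 of 23 neighbouring pairs, which were sNPF over Capa, Hug over Ilp5, Dsk over Ilp7, ETH over amn and amn over Ilp3.

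**Figure D4:**
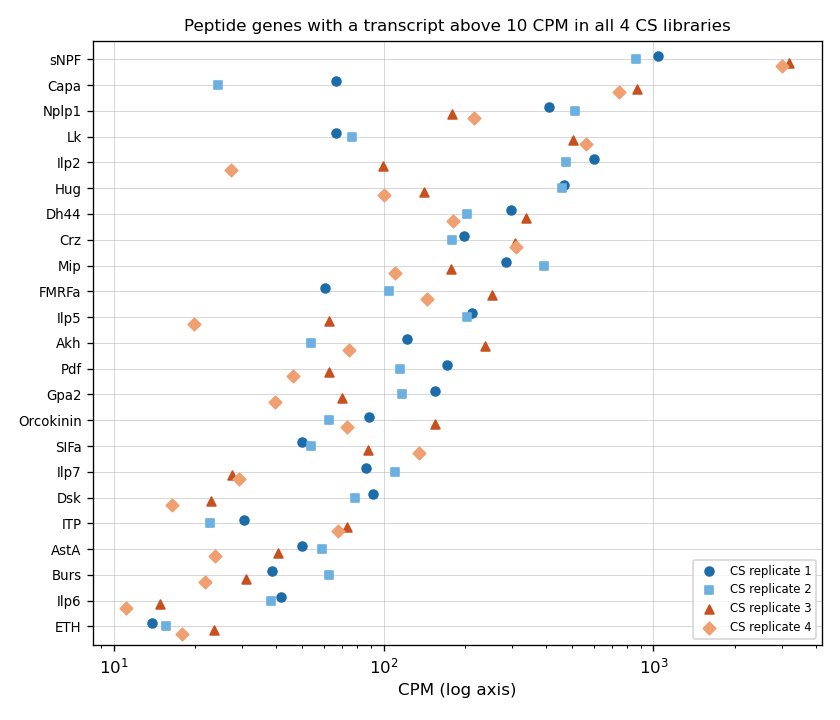
CPM (log axis) of the peptide genes whose leading transcript was above 10 CPM in all 4 CS libraries, in the order of their mean, with 1 point for each CS replicate. On this scale, which is not divided by length, sNPF lies highest in every library, at 1036, 861, 3174 and 3003 CPM.

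Enzymes that mature these peptides were uneven in counts. Of the 9 genes of the peptide processing list only amon has a single counted isoform. amon, the prohormone convertase of neuroendocrine cells, had 1075, 1146, 1130.5 and 670.2 CPM and varied little. Pal2 and Pal1, which complete the amidation of peptides, had 24.9, 64.5, 67.7 and 67.9 CPM and 22.2, 20.9, 18.4 and 19.9 CPM, summed over isoforms. Phm, which begins it, had 0, 12.2, 4.02 and 11.6 CPM. All 3 have several isoforms, so their low values fall under the isoform limit given above. Of the insulin pathway within receiving cells only Tsc1, with 49.9, 119, 248 and 158 CPM, had a transcript above 10 CPM in all 4 libraries. Tsc1 is also the only gene of this list with a single counted isoform. S6k had 96.9, 92.4, 12.1 and 7.76 CPM, Akt 114, 74.98, 9.18 and 4.36 CPM and Rheb 2.77, 24.4, 75.2 and 85.3 CPM. Summed over isoforms, InR, the insulin receptor, had 60.9, 19.2, 38.4 and 26.7 CPM and foxo 16.6, 47.1, 14.3 and 12.1 CPM. As sums, both were thus above 10 CPM in all 4 libraries too. The list as a whole took 0.0341, 0.0384, 0.0445 and 0.0328% of the counts.

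Genes of DNA replication and division, which cycling cells such as neuroblasts use, were counted in every library. 14 of 24 genes of the cell cycle list had a transcript above 10 CPM in all 4 libraries, and 14 of 49 transcripts did (28.6%, against 10.4% of all transcripts). Mcm2 and Mcm6, of the replicative helicase, had 183, 127, 782 and 794 CPM and 244, 281, 434 and 533 CPM. RnrS and RnrL, the subunits of ribonucleotide reductase, had 266, 246, 302 and 408 CPM and 41.5, 33.1, 535 and 492 CPM. In 12 of the 14 transcripts both deep libraries lay above both shallow ones, against 53.3% of all 3583. Of the 14, 10 come from genes with 1 isoform. Over the 2581 such transcripts above 10 CPM the mean of the deep pair was higher in 77.6%.

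Ribosomal protein genes varied most among the housekeeping lists. They took 5.4, 6.64, 0.699 and 0.549% of the counts, and among single-isoform genes alone 10.9, 11.3, 0.79 and 0.584%. Of their 241 transcripts 27 were above 10 CPM in all 4 libraries (11.2%, near the 10.4% of all transcripts). Among genes with 1 isoform it was 17 of 23, against 26.4% of such genes. In 23 of the 27 both deep libraries lay below both shallow ones, against 27.6% of all 3583. Mitochondrial ribosomal proteins behaved otherwise. They took 0.454, 0.55, 0.769 and 0.889% of all counts, but 0.908, 0.945, 0.909 and 1.01% of the counts on single-isoform genes, which differ by little between the pairs. Of these genes 51 of 73 had a transcript above 10 CPM in all 4 libraries. By transcript this was 51 of 96 (53.1%, against 10.4% of all transcripts). The highest were mRpL39 with 169, 155, 347 and 565 CPM and mRpL1 with 161, 134, 318 and 512 CPM. After them came mRpS35 with 133, 314, 220.4 and 359 CPM and mRpS31 with 152, 296, 229 and 329.8 CPM.

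Other basic functions were spread between these cases. The proteasome took 0.641, 0.728, 1.29 and 1.63% of all counts and 1.35, 1.3, 1.54 and 1.87% of those on single-isoform genes. Rpn11, its deubiquitinating subunit, had 819.9, 938, 721 and 831 CPM and was steady, whereas Rpn1, a scaffold subunit, had 471, 485, 1992 and 2664 CPM. Prosbeta3 had 668, 659, 1257 and 1699 CPM and Rpn5 648, 776, 956 and 1502 CPM. Nuclear-encoded respiratory chain genes took 0.811, 1.11, 0.709 and 0.831% of the counts, with ATPsynB at 2435, 3634, 1204 and 1759 CPM, ATPsynO at 590.0, 739, 1834 and 2292 CPM, ND-23 at 1177, 1555, 318 and 359 CPM and SdhB at 689.7, 964, 693 and 677 CPM. Chaperones took 0.412, 0.439, 0.776 and 1.0%, led by the chaperonin subunits CCT2, CCT6, CCT7 and CCT8. CCT2 had 1908, 2042, 1079 and 2077 CPM and CCT6 679, 748, 1797 and 2112 CPM. CCT7 had 490.3, 519.6, 1404 and 1569.7 CPM and CCT8 374, 359, 1037 and 1179 CPM.

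Translation factors took 2.22, 1.72, 0.814 and 1.0%. After eIF4EHP the highest were eIF3i with 413, 459, 1898 and 3079 CPM, eIF1 with 1521, 1809.9, 625 and 497 CPM and eIF3k with 909, 1255, 366 and 487 CPM. eIF3i was higher in the deep pair, and eIF1 and eIF3k in the shallow pair. The vacuolar ATPase, which acidifies organelles and loads synaptic vesicles, took 0.262, 0.334, 0.51 and 0.673%, led by VhaAC39-1 with 1432, 1606, 3372 and 4983 CPM. Vha36-1 had 302, 574, 517 and 588 CPM, VhaM9.7-a 587, 858, 41.3 and 39.8 CPM and Vha14-1 119, 148, 397 and 292 CPM.

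The isoform limit bears on every gene of glycolysis. None of its 12 genes has a single counted isoform. Hex-A, a hexokinase, had 4476, 3214, 449 and 324 CPM, Pfk 992, 1208, 153 and 167 CPM, Eno 969, 1153, 229 and 295 CPM and Ldh 623, 833, 192 and 206 CPM, all higher in the shallow pair. PyK, pyruvate kinase, had 0, 3.49, 244 and 239.6 CPM, higher in the deep pair. Gapdh1, Gapdh2, Pgk and Pglym78, enzymes that every cell uses, had at most 6.89 CPM in any library, and Pgi had no count. These genes are listed near 0, which does not show that they were not expressed.

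Among cytoskeletal genes, tubulin and actin together took 2.79, 3.52, 2.87 and 2.85% of the counts. betaTub56D, the common beta-tubulin, had 8.31, 6.97, 2189 and 2600.2 CPM on its leading isoform, and alphaTub84D 324, 239, 1688 and 1512 CPM. Of the dosage compensation complex, which raises output of the X chromosome in males, mof had 116, 122, 203 and 181 CPM, msl-3 44.3, 68.00, 39.02 and 30.1 CPM, msl-1 102, 62.8, 31.6 and 8.24 CPM and mle 0, 0, 68.9 and 49.5 CPM.

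Noncoding RNAs gave 3.65, 4.01, 3.93 and 3.84% of the counts, and 147 of the 3583 transcripts above 10 CPM in all 4 libraries. lncRNA:CR40469 (NR_003723.2, chrX:122493-122706) had 6038, 6061, 280.0 and 68.4 CPM. lncRNA:mimi had 3163, 2417, 34.4 and 23.3 CPM and asRNA:CR43875 1504, 1791, 586 and 782 CPM. asRNA:CR45798 had 789, 769, 1387 and 1438 CPM and lncRNA:CR42491 85.9, 71.5, 1406 and 2395 CPM. The last was high in the deep pair, whereas CR40469 and mimi were high in the shallow pair. The library kit keeps no strand, so reads of a noncoding RNA and of a gene it overlaps cannot be told apart in the stretch they share. By position lncRNA:CR42491 lies within RpL22, and asRNA:CR43875 overlaps alphaSnap. Both genes are among the top 20 above, so the levels of these RNAs are uncertain.

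By chromosome, the share of single-isoform genes above 10 CPM in all 4 libraries lay between 21.8% on 2L and 30.1% on 3R among the large arms, with 27.6% on X, 26.9% on 2R and 26.0% on 3L, beside 26.4% of all such genes. On the small chromosome 4 it was 10 of 32, and on Y 0 of 58.

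The spread between the 4 libraries was larger than counting error. Over the 3583 transcripts the median CV was 0.557, whereas counting error alone gave a median of 0.0981. Within replicates 1 and 2 the median CV was 0.214, beside 0.167 from counting, and within replicates 3 and 4 it was 0.163, beside 0.0652. Spearman's rho across these transcripts was 0.891 between replicates 1 and 2 and 0.936 between replicates 3 and 4, but 0.306 to 0.412 across the pairs. Across single-isoform genes alone the last range was 0.484 to 0.529. Transcripts of one library are not independent replicates, and these coefficients are given as descriptions. Between replicates 3 and 4, 10.2% of the transcripts differed by more than 2-fold, between replicates 1 and 2 15.2%, and across the pairs 60.6 to 64.8%.

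The spread did not shrink with level. Transcripts with a mean of 10 to 30 CPM had a median CV of 0.380 and those above 1000 CPM one of 0.808, while counting alone gave 0.249 and 0.0287 in these classes. The 2 deep libraries were above the 2 shallow ones for 1908 transcripts (53.3%) and below them for 989 (27.6%). With gene length, the ratio rose by class up to 5000 bases. Among single-isoform genes the median log2 ratio of the deep over the shallow pair was -0.58 for 84 genes of up to 500 bases of exon, 0.34 for 492 genes of 500 to 1000 bases, and 1.10 for 1086 genes of 1000 to 2000 bases. It was 1.64 for 535 genes of 2000 to 3000 bases, 1.74 for 277 genes of 3000 to 5000 bases, and 1.15 for 107 longer genes. Spearman's rho of exon length with this ratio was 0.360 across 2581 genes.

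The steadiest transcripts had a spread below that of counting error. Ih, a channel opened by hyperpolarization, had 116, 109.8, 109 and 106 CPM on its leading isoform, with a CV of 0.0403 beside 0.114 from counting. CG10469 had 13.8, 13.9, 13.8 and 15.03 CPM and CG15141 341, 312, 312 and 334 CPM. Socs44A, of the suppressor of cytokine signaling family, had 352, 389, 357 and 380.2 CPM, and RfC4, a clamp loader subunit of DNA replication, 222, 239, 252 and 242 CPM. Cdk8, a kinase of the Mediator complex, had 72.02, 80.2, 76.9 and 72.3 CPM. CG10470 had 163, 152, 171 and 154 CPM and 5PtaseI 24.9, 26.2, 26.4 and 23.3 CPM. In all 8 the CV was smaller than counting alone gives, so their order among themselves carries no information.

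The most variable transcripts were set by a single library. CG4115 had 22.2, 31.4, 861 and 41.2 CPM, high in replicate 3. CG30371 had 13.8, 24.4, 90.7 and 1250.2 CPM, and its CV of 1.75 was the largest. Pig1, a salivary gland gene, had 526, 420.2, 379 and 4704 CPM and CG11300 576, 666, 1404 and 7704 CPM. CG34220 had 11.1, 12.2, 10.9 and 152 CPM and CG34290 11.1, 19.2, 11.5 and 141 CPM. CG13360 had 11.1, 74.98, 53.4 and 411 CPM and CG43117 30.5, 40.1, 11.5 and 236 CPM. In these 7 replicate 4 was the high library.

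Transcripts that stood apart in 1 library were counted by a rule chosen after their values were seen, namely at least 30 counts and more than 4 times the highest of the other libraries, with 3 CPM added to each. There were 2 in replicate 1, 4 in replicate 2, 60 in replicate 3 and 43 in replicate 4. A single count was worth 2.77, 1.74, 0.574 and 0.485 CPM in replicates 1 to 4, so the minimum of 30 counts demanded a higher CPM in the shallow pair. These numbers are therefore not comparable between the shallow and the deep pair. Those of replicate 3 took 1.25% of its counts, and at most 0.0774% of any other library. Those of replicate 4 took 2.40%, and at most 0.283% elsewhere.

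Of the 34450 transcripts 60 stood apart in replicate 3. Of these, 5 were among the 35 of the Osiris family and 6 among the 152 of the cuticle list. Surface epithelia use both sets while they secrete cuticle. The other transcripts belong to neither set. Among them were asp with 94.2, 33.1, 576 and 109 CPM and Ufd4 with 116, 145, 647 and 146 CPM. Those named below were chosen after their values were seen. Osi9 had 0, 1.74, 993 and 3.39 CPM, Osi15 2.77, 6.97, 1429 and 13.1 CPM, Osi18 0, 5.23, 557 and 2.91 CPM and Osi20 0, 0, 470.0 and 1.94 CPM. With Osi7, these lie within chr3R:6248994-6341424 in dm6. Summed over the 35 transcripts of the family, the level was 8.31, 57.5, 3597 and 43.2 CPM. The cuticle genes Twdlbeta and Cpr64Ab had 0, 0, 184 and 0.485 CPM and 2.77, 5.23, 179 and 0.97 CPM, and ImpE2, an ecdysone-induced gene, 0, 0, 69.4 and 0 CPM. wat, a gene of tracheal gas filling, had 0, 1.74, 209 and 8.24 CPM. Of the 118 genes of the cuticle list, 85 were detected and only Cpr49Ag was above 10 CPM in all 4 libraries.

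Of the 34450 transcripts 43 stood apart in replicate 4, and 1 was among the 9 of the salivary gland list, namely ng3. Those named below were chosen after their values were seen. PH4alphaSG1 and PH4alphaSG2, prolyl hydroxylases named for the salivary gland, had 0, 8.72, 47.1 and 274 CPM and 0, 6.97, 49.3 and 210.0 CPM. pip, a sulfotransferase also used there, had 8.31, 12.2, 12.6 and 179 CPM on its leading transcript, and Pig1 and ng3 are given above. The glue genes themselves stayed at or under 0.485 CPM in replicate 4. NAAT1, an amino acid transporter, had 0, 3.49, 0 and 399 CPM. CG17134 had 0, 22.7, 115 and 2374 CPM and Tps1, which makes trehalose, 0, 12.2, 61.4 and 371 CPM. Of the isolated cases in replicate 2, Col4a1, a collagen of the basement membrane, had 5.54, 92.4, 1.15 and 0.97 CPM.

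**Figure D5:**
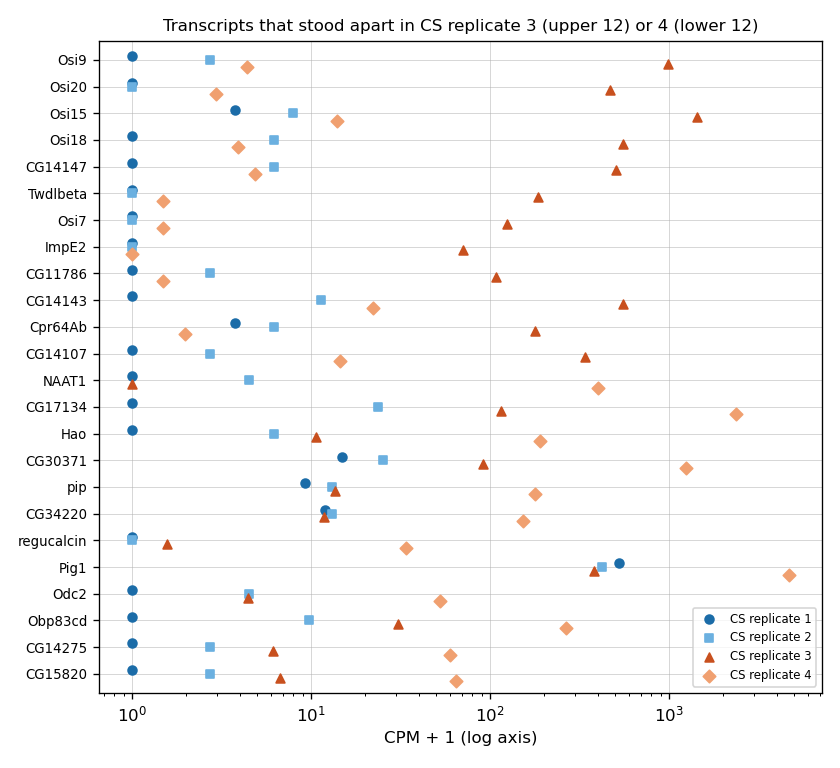
CPM + 1 (log axis) of the 12 transcripts that stood furthest apart in CS replicate 3 and the 12 genes that did so in CS replicate 4, with 1 point for each replicate. Osi9 has 0, 1.74, 993 and 3.39 CPM and NAAT1 0, 3.49, 0 and 399 CPM in replicates 1 to 4.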

How the data were processed

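The authors isolated RNA from 4 pools of CS brains, made cDNA with a poly(A)-primed low-input kit and Nextera XT libraries, trimmed the reads, aligned them to dm6 with hisat2 and deposited, for each library, raw read counts per RefSeq feature from htseq-count. Tool versions, annotation release and counting mode are not given in the sources used here. The 5 summary rows and the 13 mitochondrially encoded features were left out of totals and levels. Of 34450 transcripts, 34399 were matched to a gene by RefSeq identifier and 51 were not. The deposited table of the genotype comparison holds base means, fold changes and p-values, and was not used.

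CPM was the count per 1000000 counts of the library total, without further scaling. Depth per library and the limit set by 3 counts are given with the results. Exon length was the union of exons per gene in Ensembl BDGP6.54, matched by symbol for all 7454 detected genes with 1 counted isoform. No groups were compared and no test was run. No 2 libraries held the same counts within sampling noise, since the lowest chi-square of a pair over its degrees of freedom was 4.27. The samples and gene lists were chosen with earlier results of these data known.

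The genes named were the 20 of highest mean CPM and the 10 highest per kb, up to 4 of each list by mean CPM, all detected transmitter, calcium and peptide genes, the 8 transcripts of highest and of lowest CV, the 2 nearest to 10 CPM on each side, and the 5 highest noncoding RNAs. Others were chosen after their values were seen. Values of cell type marker, temporal, transmitter, calcium, channel, receptor, peptide processing, insulin pathway and glycolysis genes are sums over their isoforms, unless a leading isoform is named. The top 20, IA-2 and Ald1 among them, and all other genes stand for their highest transcript.

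Alternatives were TMM scaling (edgeR 4.0.16), size factors (DESeq2 1.42.0, R 4.3.3), other minimums, counts summed per gene, other rankings, mitochondrial features kept, shares per kb, and leaving out each library. Restricting to genes with 1 isoform or to a pair of libraries was added after seeing the data. Python 3.11.15 was used, and the steps were tested on simulated data.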

Additional observations from a re-analysis of the deposited data

Results flagged for a closer look

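In groups of 4 libraries drawn alike, a single value far from the other 3 is marked by chance about 1 time in 20, and 230 sets of 4 values were looked at. The libraries here form a shallow and a deep pair, so this rate is only a guide. It does not apply to CG11300, CG30371, Pig1, CG34220, CG34290, CG13360, CG43117 and CG4115, which were named for having the highest CV. Of the transcripts named above, CG11300, CG30371, Pig1, CG34220, CG34290, CG13360, CG43117 and ng3 were set apart by a high replicate 4, with 7704, 1250.2, 4704, 152, 141, 411, 236 and 82.0 CPM there. Replicate 3 set apart CG4115, Twdlbeta and Cpr64Ab, with 861, 184 and 179 CPM. Low values stood apart for amon in replicate 4 (670.2 CPM), for CCT2 in replicate 3 (1079 CPM) and for Pal2 in replicate 1 (24.9 CPM), and a high value for SdhB in replicate 2 (964 CPM). Among the list shares, salivary gland genes stood apart in replicate 4 (0.0145%), tubulin and actin in replicate 2 (3.52%) and dosage compensation genes in replicate 3 (0.0399%).

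The 13 mitochondrially encoded features, left out of every level above, took 8.76, 8.39, 0.995 and 1.37% of the feature counts in CS replicates 1 to 4.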

How the results depend on the processing

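The 3583 transcripts above 10 CPM in all 4 libraries became 5627 when at least 2 libraries were enough, and lay between 2776 and 4815 under the other settings. Leaving out a CS replicate gave 3634 to 3961. The share on the 100 top-ranked transcripts, 28.2%, lay between 26.3 and 33.1% under other rankings, gene sums, mitochondrial features kept or 1-isoform genes alone, and between 25.5 and 32.2% without a replicate. The median CV of 0.557 became 1.16 over every transcript with at least 1 count, 0.214 in replicates 1 and 2 only and 0.163 in replicates 3 and 4 only. Under TMM it was 0.558, and without a replicate 0.511 to 0.572. The mean CPM of all 201 transcripts named by rule moved by less than 1 SD under TMM and DESeq2 size factors. Leaving out 1 of 4 values cannot move a mean by 1 SD, so folds are given instead. The mean moved by over 1.5 times for 29, 25, 15 and 23 of the 201 without CS replicates 1, 2, 3 and 4. CG30371 averaged 43.0 CPM without replicate 4, against 345 CPM over all 4, and CG4115 31.6 CPM without replicate 3, against 239 CPM. Of the list shares, epidermis became 0.0332% without replicate 3, against 0.0601%, ring gland 0.305% without replicate 4, against 0.467%, salivary gland 0.00271% without replicate 4, against 0.00564%, and temporal factors 0.306% without replicate 1, against 0.516%. Haemocyte, fat body and gut shares, all near 0, also moved by over 1.5 times without replicate 1 or 2. Of 29 list shares, 11 moved by more than 1 SD on genes with 1 isoform (6 up, 5 down) and 18 per kb of exon (9 up, 9 down). In each case 3 of them, neurons, calcium and glycolysis, hold no such gene and go to 0 by construction. The cause of the others was not tested. No paired analysis was possible because a single group was described and no test was run. Depth limits genes near the value of 3 counts, Stim, Orai and Ilp3 among them.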
